A study of Mus musculus with 9 samples.

Results

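The 41 genes described here encode parts of the sarcomere and of the calcium and energy handling of striated muscle. They were taken by gene symbol, and 39 of them were among the 18349 genes listed for iris RNA of mice with corneal alkali injury (CAI). Myh4 and Myh8 were not analysed here. RNA-Seq was done on 9 libraries, 3 for every one of the 3 groups, and a library was made from 3 pooled irises. Sham VEGFR3fl/fl mice received PBS on the cornea, and injured VEGFR3fl/fl mice received sodium hydroxide (0.5 μL at 1 M, for 60 seconds) at 6 weeks of age. Injured VEGFR3iLECko mice had the same injury and carried, besides floxed VEGFR3, a tamoxifen-inducible Cre under Prox1 (Prox1-CreERT2). Prox1 marks lymphatic endothelium but is also known from lens and slow muscle fibres, so that the driver is not specific to lymphatic cells. The strain was C57BL/6J throughout, and the 3 groups shared the floxed allele, although the labels call the VEGFR3fl/fl mice WT. The labels give tamoxifen at 80 mg/kg on days 13 to 17 after injury and set no group apart, and irises were collected at 10 weeks of age. By the study's methods the 3 pools of a group came from separate mice, 3 to a pool, so p-values measure the spread between such pools.

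A sarcomere is built of thick filaments of myosin, thin filaments of actin with the troponins, and Z-discs that anchor the thin filaments, with titin spanning from Z-disc to the middle. Calcium released from the sarcoplasmic reticulum through the ryanodine receptor binds troponin and lets myosin pull on actin, and creatine kinase rebuilds the ATP that is spent. Skeletal and heart muscle use these proteins in striated form. The sphincter and dilator of the mammalian iris are smooth muscle, which contracts through other actin and myosin isoforms and has no troponin.

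Totals lay between 16617187 and 18306359 counts per library, so that 1 count stood for 0.0554 to 0.0607 CPM, the count scaled to one common library total by edgeR's TMM method. Of the 39 genes listed, 21 passed the filter on low counts and were tested, 11 of them above its level of 0.569 CPM in all 3 groups, 7 in 2 groups and 3 in 1 group. A gene over that level in Sham alone, or in 1 or both injured groups alone, was kept only by its level there and was prone to differ. Counts of calls among these 21 are therefore a description. A call was an adjusted p under 0.05 in edgeR's quasi-likelihood test with a change of more than 1.5-fold. The 18 genes listed but not tested are described by their counts. Flt4, which encodes VEGFR3, was not lower in the VEGFR3iLECko libraries, with 370 to 478 counts against 277 to 400 in injured VEGFR3fl/fl and 237 to 282 in Sham. Against Sham, Flt4 was called higher in VEGFR3iLECko libraries (log2 fold change 0.80, SE 0.15, edgeR adjusted p = 0.00161). Which of its exons these counts cover was not tested. The summed level of 4 Y-linked genes was 0.736 to 1.09 CPM in the VEGFR3iLECko libraries and 0.804 CPM in injured VEGFR3fl/fl replicate 3, against 51.1 to 167 CPM in the other 5 libraries. Iris pigment genes, which mark the labelled tissue, were at 27794 to 29755 CPM in sum in Sham, 3413 to 5858 in injured VEGFR3fl/fl and 5118 to 7169 in VEGFR3iLECko libraries.

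The stretches upstream of 7 of these genes are printed because 5 of them (Mybpc1, Ckm, Ttn, Ldb3 and Casq2) fell together after injury and 2 (Myh3 and Mybpc2) rose. Each is the 250 bases before a transcription start in RefSeq on GRCm38.p6, the assembly behind the mm10 build of the submitters' processing notes, written 5′ to 3′ in the direction of the gene. Capitals mark CANNTG, CTANNNNTAG and the CArG box. Myogenic factors of the MyoD family are known to bind CANNTG, the E-box letters, and serum response factor the CArG box. CTANNNNTAG is a looser form of the MEF2 site that allows any base in its middle, so a match need not be a MEF2 site. The first 2 motifs read alike on both strands, as does the CArG box as searched, so a single scan covered both strands, and no match overlapped another in these windows. RefSeq lists several starts for some genes. Other annotated starts lie upstream, so that 77 bases of the Mybpc1 window, 10 of the Ttn window, 27 of the Myh3 window, 46 of the Mybpc2 window and all 250 of the Ldb3 window fall within the annotated gene.

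Mybpc1 (chr10:88605153-88605402, minus strand): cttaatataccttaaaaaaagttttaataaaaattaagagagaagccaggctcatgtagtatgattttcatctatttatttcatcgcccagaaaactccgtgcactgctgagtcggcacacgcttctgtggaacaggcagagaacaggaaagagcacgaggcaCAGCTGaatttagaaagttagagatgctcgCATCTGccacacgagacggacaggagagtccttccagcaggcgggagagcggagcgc
Ckm (chr7:19410844-19411093, plus strand): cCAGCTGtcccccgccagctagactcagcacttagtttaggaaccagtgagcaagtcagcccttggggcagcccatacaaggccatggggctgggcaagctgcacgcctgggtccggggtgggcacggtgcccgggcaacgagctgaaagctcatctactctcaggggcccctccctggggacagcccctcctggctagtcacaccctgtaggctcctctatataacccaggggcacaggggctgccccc
Ttn (chr2:76982548-76982797, minus strand): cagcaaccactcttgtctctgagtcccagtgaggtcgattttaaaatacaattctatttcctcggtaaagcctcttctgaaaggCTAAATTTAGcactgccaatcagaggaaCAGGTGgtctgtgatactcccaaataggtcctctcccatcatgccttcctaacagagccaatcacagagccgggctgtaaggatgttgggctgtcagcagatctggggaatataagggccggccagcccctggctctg
Ldb3 (chr14:34588608-34588857, minus strand): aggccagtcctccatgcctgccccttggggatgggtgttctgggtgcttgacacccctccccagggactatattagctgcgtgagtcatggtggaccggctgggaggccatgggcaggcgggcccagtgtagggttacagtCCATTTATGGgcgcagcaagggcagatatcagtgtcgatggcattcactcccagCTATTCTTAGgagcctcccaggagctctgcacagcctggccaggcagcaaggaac
Casq2 (chr3:102086165-102086414, plus strand): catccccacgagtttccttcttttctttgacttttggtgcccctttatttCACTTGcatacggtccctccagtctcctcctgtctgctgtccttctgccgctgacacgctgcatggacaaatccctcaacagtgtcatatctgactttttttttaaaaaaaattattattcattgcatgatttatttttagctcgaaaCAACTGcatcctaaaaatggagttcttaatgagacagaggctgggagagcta
Myh3 (chr11:67078050-67078299, plus strand): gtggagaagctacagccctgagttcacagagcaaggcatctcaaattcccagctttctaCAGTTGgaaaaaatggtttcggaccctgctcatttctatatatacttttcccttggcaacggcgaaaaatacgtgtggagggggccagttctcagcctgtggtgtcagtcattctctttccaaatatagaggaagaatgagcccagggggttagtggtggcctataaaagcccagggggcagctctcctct
Mybpc2 (chr7:44524670-44524919, minus strand): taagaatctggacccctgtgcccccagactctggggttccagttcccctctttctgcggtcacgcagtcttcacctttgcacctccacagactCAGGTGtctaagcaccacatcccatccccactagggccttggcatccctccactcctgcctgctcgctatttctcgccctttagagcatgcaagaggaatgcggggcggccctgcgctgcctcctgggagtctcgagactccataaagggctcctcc

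Mybpc1 and Casq2 held 2 CANNTG matches each, and Ckm, Ttn, Myh3 and Mybpc2 held 1 each. Ldb3 held none at the start shown, but 1 CTANNNNTAG and 1 CArG box. Ttn also held 1 CTANNNNTAG, beginning 166 bases before the start. CANNTG is short and occurred in 66.2% of the 32851 windows of this length in the table, CTANNNNTAG in 3.20% and the CArG box in 1.47%. Of 39 windows for the 32 genes of the list that the table held, 33 (84.6%) had a CANNTG, 3 (7.69%) a CTANNNNTAG and 5 (12.8%) a CArG box. The windows of genes that fell and of genes that rose thus both held E-box letters, as most windows did.

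In the Sham iris, a few genes held most of the summed CPM of the list. Mybpc1 (chromosome 10, 88518279 to 88605229), the slow-type myosin-binding protein C that sits on the thick filament, held 40.6% of the summed level of the 39 genes. Ckm, the muscle creatine kinase, held 13.1%, Ldb3, a Z-disc protein, 11.8%, Ttn, which encodes titin, 8.07%, and Casq2, the calcium store protein of the sarcoplasmic reticulum best known from heart, 5.25%. These 5 genes were together at 80.4, 95.8 and 80.7 CPM in the 3 Sham libraries, against 22.0 to 23.5 CPM for the other 34. Per length, in approximate TPM (the scaled count divided by transcript length), the Sham means were 32.4 for Mybpc1, 14.9 for Ckm, 7.18 for Ldb3, 6.42 for Casq2 and 5.54 for the slow troponin T Tnnt1. Ttn, whose transcript has 106824 bases, was at only 0.236 TPM. The main skeletal actin Acta1 was at 0.517 TPM and the fast light chain Mylpf at 2.39 TPM. For scale, the smooth muscle actin Acta2 was at 5506 TPM and the smooth muscle myosin Myh11 at 1305 TPM in the same libraries.

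Injury changed both the sum and its make-up. The summed level was 104, 118 and 104 CPM in Sham libraries, 53.2, 45.9 and 40.5 CPM in injured VEGFR3fl/fl and 46.8, 50.1 and 45.5 CPM in injured VEGFR3iLECko libraries. Both injured groups lay below Sham with no overlap. Without Mybpc1, the sums were 62.0 to 68.4 CPM in Sham, 40.5 to 53.2 CPM in injured VEGFR3fl/fl and 45.5 to 50.0 CPM in VEGFR3iLECko libraries. The sum of the 34 genes other than the 5 named above, a split made after their values were seen, went the other way, from 22.0 to 23.5 CPM in Sham to 37.0 to 48.5 CPM and 41.2 to 46.2 CPM. Myh3 and Mybpc2 held part of that rise in injured VEGFR3fl/fl libraries and most of it in VEGFR3iLECko libraries. The other 32 genes summed to 15.7 to 17.4 CPM in Sham and 19.9 to 37.3 CPM in injured VEGFR3fl/fl libraries. In VEGFR3iLECko libraries they summed to 16.7 to 22.4 CPM, which overlapped Sham. After injury Myh3, the embryonic myosin heavy chain, was the leading gene, with 25.5% of the sum in injured VEGFR3fl/fl and 35.4% in VEGFR3iLECko libraries. In whole-iris RNA, fewer cells of a type and less RNA per cell cannot be told apart.

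**Figure D1:**
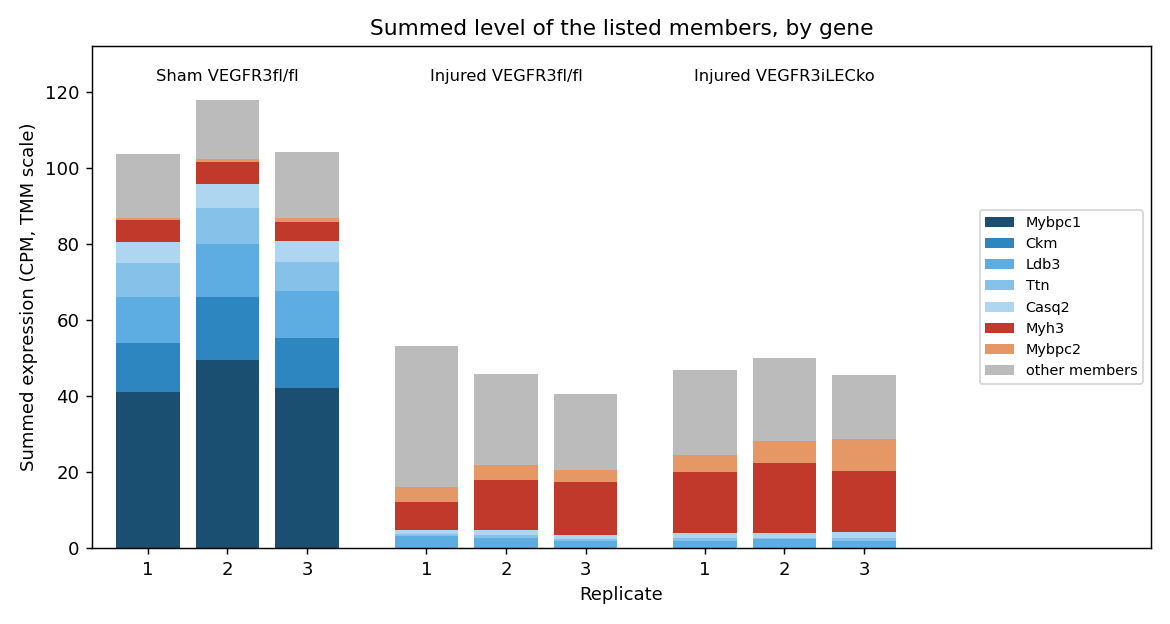
Summed expression (CPM, TMM scale) of the 39 listed genes in each of the 9 libraries, stacked by gene, with blue shades for 5 genes that fell after injury, red and orange for Myh3 and Mybpc2, and grey for the other 32. Mybpc1 makes up the largest block in the Sham libraries (40.9 to 49.4 CPM) and is not visible after injury, where Myh3 takes 7.46 to 18.5 CPM.

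Between injured VEGFR3fl/fl and Sham, 5 of the 21 tested genes fell (Mybpc1, Ckm, Ttn, Ldb3 and Casq2), 8 rose (Myh2, Myh3, Mybpc2, Tnni1, Tnni2, Actn2, Ryr1 and Cacng1) and 8 did not pass. Over all 15010 genes tested, 17.5% were called lower and 22.1% higher. The called genes of the whole table were 55.8% higher ones, a share of 44.1% when libraries were scaled by size only. The 21 genes had a median change of 0.44 on the log2 scale, beside 0.010 over all genes tested. The share of the 21 genes called was 23.8% lower and 38.1% higher. By mean CPM, Myh2, Tnni1, Tnni2 and Ryr1 were over the filter level in the 2 injured groups only, and Cacng1 in injured VEGFR3fl/fl only. Mybpc1 and Ckm were over it in Sham only. These genes were kept by the group where they were high, so the shares cannot be compared with the background. Leaving out 1 library at a time gave 5 to 6 genes lower and 6 to 9 higher. The summed level of 8 leukocyte genes, of which 7 were tested and all 7 rose, went from 193 to 196 CPM in Sham to 2263 to 2543 CPM, and its part in these changes was not tested.

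**Figure D2:**
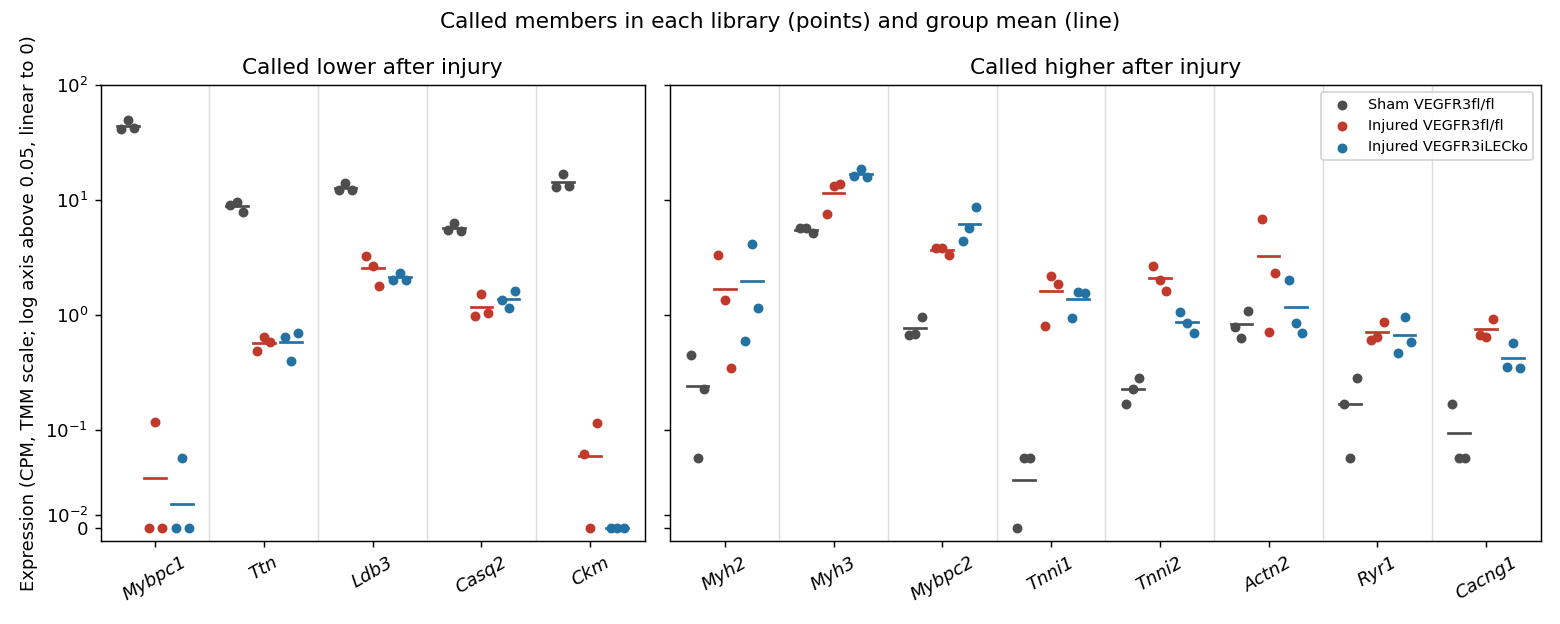
Expression (CPM, TMM scale, log axis above 0.05 and linear to 0) of the 13 genes called between injured VEGFR3fl/fl and Sham VEGFR3fl/fl, with 1 point per library and a line at the mean of each group of 3. The 5 genes on the left are lower in all 6 injured libraries than in any Sham library, whereas Myh2 and Actn2 on the right overlap between Sham and injured VEGFR3fl/fl libraries.

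Among thick filament genes, Mybpc1 and its fast-type relative Mybpc2 moved in opposite directions. Mybpc1 had 739, 875 and 748 counts in Sham libraries, 0, 2 and 0 in injured VEGFR3fl/fl and 0, 1 and 0 in VEGFR3iLECko libraries. It was the highest gene of the list in every Sham library and close to absent in all 6 injured ones. Summed over libraries and scaled by their depth, the Sham level was 1125 times the injured VEGFR3fl/fl level, with a 95% exact interval of 311 to 9294 that covers counting error only (edgeR adjusted p = 2.08e-07). Mybpc2 (chromosome 7, 44501699 to 44524715) had 12, 12 and 17 counts in Sham, 62.3, 65 and 58 in injured VEGFR3fl/fl and 75.2, 100 and 149 in VEGFR3iLECko libraries. Its groups did not overlap in any pair, and it rose by a log2 fold change of 2.23 (SE 0.30, edgeR adjusted p = 0.000194) between injured VEGFR3fl/fl and Sham. Both injured groups therefore held more transcript of the fast-type than of the slow-type protein, the reverse of Sham, also per length (2.36 against 0.0243 TPM in injured VEGFR3fl/fl, 4.49 against 0.0129 TPM in VEGFR3iLECko libraries and 0.613 against 32.4 TPM in Sham).

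Of the myosin heavy chains, Myh3 (chromosome 11, 67078273 to 67102291), the chain of embryonic and regenerating fibres, was the one most expressed. It had 103, 101 and 91 counts in Sham, 123, 224 and 240 in injured VEGFR3fl/fl and 275, 327 and 277 in VEGFR3iLECko libraries. All injured libraries were above Sham, and replicate 1 of injured VEGFR3fl/fl was the nearest to it. The log2 fold change of injured VEGFR3fl/fl was 1.05 (SE 0.22, edgeR adjusted p = 0.00239). Myh2, the chain of fast oxidative fibres, had 8, 1 and 4 counts in Sham, 54.9, 23 and 6 in injured VEGFR3fl/fl and 10, 73 and 20 in VEGFR3iLECko libraries. It was called higher (log2 fold change 2.75, SE 1.05, edgeR adjusted p = 0.0459), although 1 injured library lay within the Sham range. Without injured VEGFR3fl/fl replicate 1 its value was 1.77 (adjusted p = 0.178), and leaving out 5 other libraries in turn, the 3 of Sham among them, also ended the call. Myh7, the slow and cardiac chain, stayed at 34 to 51 counts in Sham, 25 to 33 in injured VEGFR3fl/fl and 36 to 51 in VEGFR3iLECko libraries and did not pass (edgeR adjusted p = 0.222). Heavy chain genes share long stretches of sequence and the counts are estimates, so the split of reads among them is uncertain. The regulatory light chain Mylpf (9 to 19.7 counts over all libraries) and Mybph (15.6 to 139 counts), a relative of the binding proteins C, did not pass either, and Mybph varied more within groups than between them.

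In the thin filament both tested troponin I genes rose. Troponin I holds actin and myosin apart at rest, in a slow form (Tnni1) and a fast form (Tnni2). Tnni1 (chromosome 1, 135783033 to 135810989) had 0, 1 and 1 counts in Sham, 13, 37 and 32 in injured VEGFR3fl/fl and 16, 28 and 27 in VEGFR3iLECko libraries. The summed injured VEGFR3fl/fl level was 43.0 times the Sham level, with a 95% exact interval from counting of 11.5 to 361 (edgeR adjusted p = 0.000186). Tnni2 (chromosome 7, 142441816 to 142444410) had 3, 4 and 5 counts in Sham, 44, 34 and 28 in injured VEGFR3fl/fl and 18, 15 and 12 in VEGFR3iLECko libraries. It rose by a log2 fold change of 3.18 (SE 0.37, edgeR adjusted p = 7.33e-05), with the VEGFR3iLECko libraries between the other groups and no overlap with either. The other tested thin filament genes did not pass in injured VEGFR3fl/fl against Sham. Tnnt1 had 35, 38 and 36 counts in Sham, 34, 53 and 26 in injured VEGFR3fl/fl and 27, 22 and 14 in VEGFR3iLECko libraries. Tnnt3, the fast troponin T, had 29, 26 and 15, then 47, 21 and 15, then 33, 24 and 24 counts in the same order. Their log2 fold changes were 0.12 (SE 0.33) and 0.33 (SE 0.46). Neb, whose giant product nebulin lies along the thin filament, was at 8 to 9 counts in Sham and 9 to 19 in injured VEGFR3fl/fl libraries (log2 fold change 0.74, SE 0.44).

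Of titin and the Z-disc genes, Ttn and Ldb3 fell and Actn2 was called higher. Ttn (chromosome 2, 76703980 to 76982557) had 163, 168 and 138 counts in Sham, 8, 11 and 10 in injured VEGFR3fl/fl and 11, 7 and 12 in VEGFR3iLECko libraries. The log2 fold change of -3.93 (SE 0.25, edgeR adjusted p = 2.18e-06) left 6.48% of the Sham mean. Ldb3 (chromosome 14, 34526699 to 34590314), also known as ZASP or Cypher, had 218, 248 and 217 counts in Sham, 53, 45 and 31 in injured VEGFR3fl/fl and 34, 41 and 35 in VEGFR3iLECko libraries. It fell by 2.33 on the log2 scale (SE 0.22, edgeR adjusted p = 2.04e-05), and unlike Mybpc1 kept 19.9% of its Sham mean. Actn2, the alpha-actinin that cross-links thin filaments at the Z-disc, went the other way with 14, 11 and 19 counts in Sham, 112, 12 and 40 in injured VEGFR3fl/fl and 34, 15 and 12 in VEGFR3iLECko libraries. Injured VEGFR3fl/fl replicate 1 was far above the others, and the groups overlapped. The call (log2 fold change 1.98, SE 0.75, edgeR adjusted p = 0.0445) was lost without replicate 1, at 0.86 (adjusted p = 0.252), and when any of 6 other libraries was left out, the 3 of Sham among them. The same library had the highest summed level of 7 corneal and surface epithelium genes (118 CPM against 3.97 to 77.0 in the other 8). Nearly all of that sum was Aldh3a1. Krt12, Krt5, Krt14, Krt15 and Krt13 of that list had 3, 3, 0, 4 and 6 counts in this library. Actn3, the fast-fibre alpha-actinin, was at 14 to 32 counts in all libraries and did not pass.

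Among the 4 tested calcium handling genes, Casq2 was called lower, Ryr1 and Cacng1 were called higher, and Casq1 did not pass. Casq2 (chromosome 3, 102086415 to 102146514) had 99, 111 and 95 counts in Sham, 16, 26 and 18 in injured VEGFR3fl/fl and 23, 20 and 28 in VEGFR3iLECko libraries. It fell by 2.27 on the log2 scale (SE 0.25, edgeR adjusted p = 5.40e-05). Casq1, the skeletal calsequestrin, had 22, 29 and 18, then 15, 16 and 23, then 20, 25 and 28 counts in the same order. The groups overlapped and Casq1 did not pass (log2 fold change -0.29, SE 0.30). Ryr1, the skeletal ryanodine receptor, had 3, 1 and 5 counts in Sham, 10, 11 and 15 in injured VEGFR3fl/fl and 8, 17 and 10 in VEGFR3iLECko libraries, and rose (log2 fold change 2.02, SE 0.54, edgeR adjusted p = 0.00955). Cacng1, the gamma subunit of the muscle calcium channel, had 3, 1 and 1, then 11, 11 and 16, then 6, 10 and 6 counts, and rose too (log2 fold change 2.90, SE 0.51, edgeR adjusted p = 0.00101). Both are low genes, at under 1 CPM on average in every group, so their rise rests on few reads.

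Ckm (chromosome 7, 19411094 to 19421583) had 233, 294 and 235 counts in Sham, 1, 0 and 2 in injured VEGFR3fl/fl and 0 in each VEGFR3iLECko library. It followed Mybpc1 in being near absent from all 6 injured libraries. The summed Sham level was 242 times the injured VEGFR3fl/fl level, with a 95% exact counting interval of 82.5 to 1176 (edgeR adjusted p = 9.03e-06). Against VEGFR3iLECko libraries, where no count was seen, it was at least 248-fold higher, computed against a floor of 3 counts over the group. Myoglobin (Mb) was at 0 to 3 counts in every library, and the muscle cytochrome oxidase subunit Cox6a2 at 0 to 12.

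**Figure D3:**
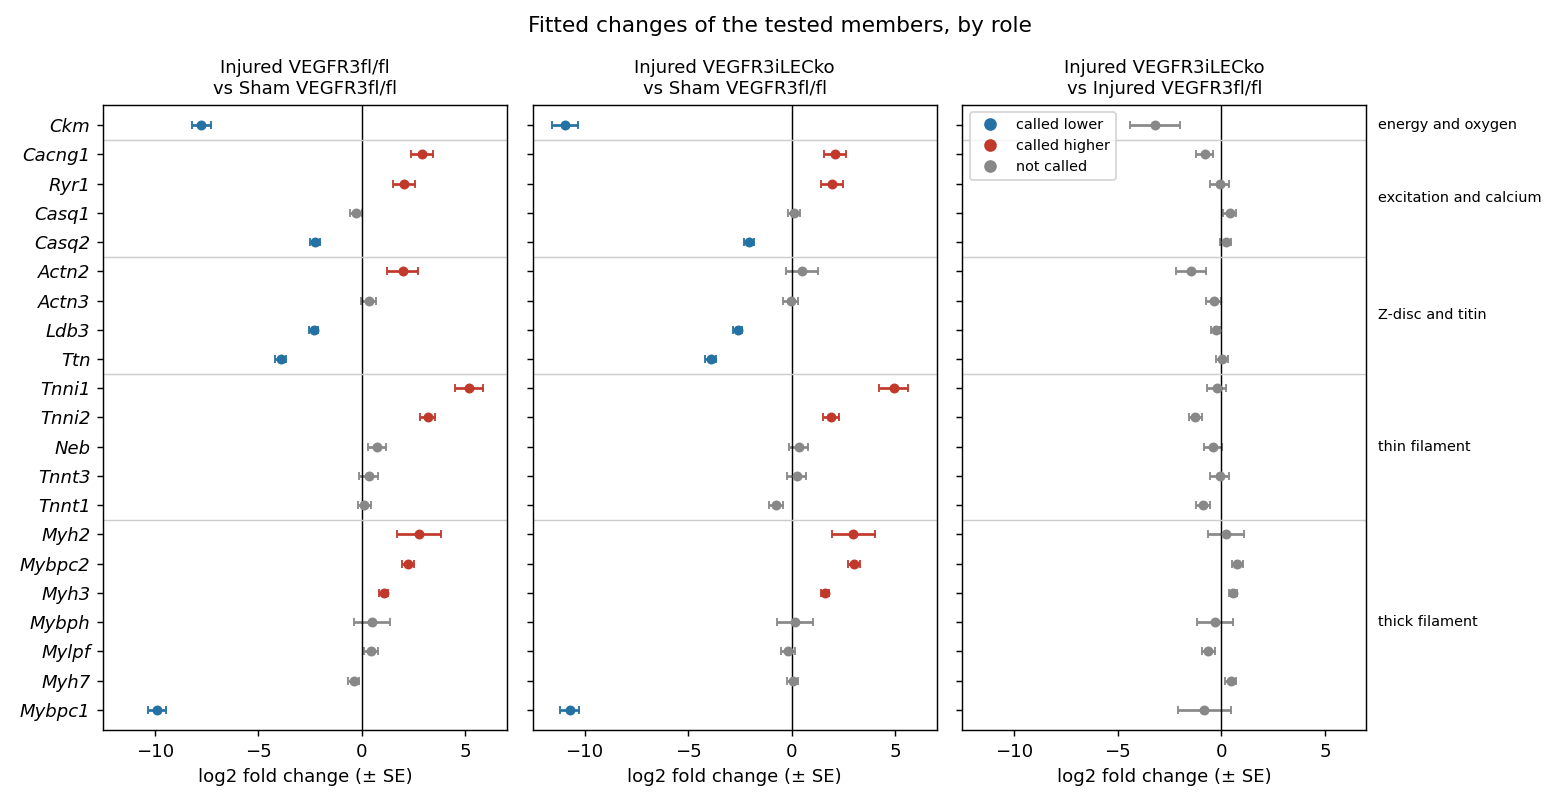
Fitted log2 fold changes with standard errors of the 21 tested genes, ordered by role, for injured VEGFR3fl/fl against Sham VEGFR3fl/fl, injured VEGFR3iLECko against Sham VEGFR3fl/fl, and injured VEGFR3iLECko against injured VEGFR3fl/fl. Blue and red points passed the test as lower and higher and grey points did not, and the values of Mybpc1 and Ckm depend on how counts of 0 are treated and are not bounds.

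The 18 genes too low to be tested had few counts even in Sham. Myl1 and Trdn were lower after injury by their counts. The fast essential light chain Myl1 had 9, 12 and 4 counts in Sham, 0 in each injured VEGFR3fl/fl library and 1, 0 and 0 in VEGFR3iLECko libraries, so that Sham was at least 7.94-fold higher than injured VEGFR3fl/fl. Trdn, which encodes triadin, the anchor of calsequestrin to the ryanodine receptor, had 15, 16 and 4 counts in Sham, 0, 1 and 0 in injured VEGFR3fl/fl and 3, 0 and 0 in VEGFR3iLECko libraries. The Sham level was 33.3 times the injured VEGFR3fl/fl level, with a wide counting interval of 5.60 to 1354. In a fit that kept every gene with a count, Myl1 and Trdn were also called lower and Myh1 and the slow troponin C Tnnc1 higher in injured VEGFR3fl/fl against Sham. Myh1, the chain of fast fibres, had 0 counts in each Sham library and 7.12, 4 and 2 in injured VEGFR3fl/fl libraries. The eye muscle heavy chain Myh13 had 0 to 2 counts in every library and Pvalb, the fast-fibre calcium buffer, 0 to 3. Acta1 was at 3, 7 and 4 counts in Sham and reached 22 in 1 injured VEGFR3fl/fl library. The remaining genes of this set (Myl2, Myl3, Tnnc2, Myoz1, Myot, Xirp2, Atp2a1, Cacna1s and Chrna1, besides Mb and Cox6a2) lay between 0 and 21 counts.

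Injured VEGFR3iLECko was compared with Sham VEGFR3fl/fl with the same Sham libraries, so the 2 comparisons with Sham are not independent. The same 5 genes were called lower (15% of all genes tested were) and 7 of the 8 were called higher (19.7% of all genes tested were), all but Actn2 with a log2 fold change of 0.51 (SE 0.77). The median over the 21 genes was 0.17, and it did not change when Ckm was set to its bound. Log2 fold changes were -3.91 for Ttn (SE 0.25), -2.59 for Ldb3 (SE 0.22) and -2.06 for Casq2 (SE 0.25). Among the rising genes they were 1.61 for Myh3 (SE 0.22), 3.01 for Mybpc2 (SE 0.30) and 1.91 for Tnni2 (SE 0.38). In that comparison the calls of Ryr1 and Cacng1 were lost with a covariate for Y-linked expression (adjusted p = 0.182 and 0.141), that of Ryr1 also without VEGFR3iLECko replicate 2 (adjusted p = 0.0575), and that of Myh2 without that library (1.81, adjusted p = 0.170) or without any Sham library.

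The comparison of injured VEGFR3iLECko with injured VEGFR3fl/fl sets the labelled genotypes side by side. The Cre was meant to remove VEGFR3 from Prox1-expressing cells, but its loss was not seen in the Flt4 counts given above. Of the 21 tested genes, 0 were called lower and 0 higher by edgeR's quasi-likelihood test, and 0 in either direction by DESeq2. The edgeR background was also low, with 0.466% of 15010 genes called lower and 0.573% higher. DESeq2 called more, with 283 lower and 350 higher of 18336 genes. An unadjusted p under 0.05 was found in edgeR's test for 5 of the 21 (Ckm, Myh3, Mybpc2, Tnnt1 and Tnni2). The share of all genes at that level was not counted, so this number is a description. For Ckm it rests on 0 against 3 counts summed over the groups. Tnni2 was nearest to the threshold, lower in all 3 VEGFR3iLECko libraries (12 to 18 counts against 28 to 44) with a log2 fold change of -1.27 (SE 0.31, edgeR adjusted p = 0.0705). Myh3 and Mybpc2 were higher in all 3 VEGFR3iLECko libraries than in any injured VEGFR3fl/fl library, by 0.56 (SE 0.21, edgeR adjusted p = 0.157) and 0.77 (SE 0.27, edgeR adjusted p = 0.135) on the log2 scale. Myh7 also lay wholly above, and Mylpf and Cacng1 wholly below, without passing. How many of all genes tested separated in this way was not counted, so the lack of overlap is only described. Of the genes that fell after injury, those that kept counts differed between the genotypes by 0.02 for Ttn (SE 0.28), -0.27 for Ldb3 (SE 0.22) and 0.21 for Casq2 (SE 0.26), none past the test. Y-linked genes differed between these groups as given above, so genotype and the make-up of the pools cannot be fully told apart.

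Other striated muscle genes were taken from a second list of 50, of which 32 were tested. In injured VEGFR3fl/fl against Sham 20 fell and 3 rose, with a median log2 fold change of -1.17, beside the 17.5% and 22.1% of all genes called lower and higher. The most expressed over the 3 groups were Atp2a2, the calcium pump shared with heart and smooth muscle, at 318 and 225 CPM in Sham and injured VEGFR3fl/fl, which did not pass the fold threshold, and Tpm3, a widely expressed tropomyosin, which rose from 182 to 504 CPM. In Sham alone, Pygm (228 CPM) and Fbxo32 (196 CPM) also lay above Tpm3. They were at 62.3 and 65.6 CPM in injured VEGFR3fl/fl. The other 2 that rose were Tnni3, the cardiac troponin I (18 to 27 counts in Sham and 42 to 72 in injured VEGFR3fl/fl libraries), and Mybpc3. Mybpc3, the cardiac myosin-binding protein C, had 0 counts in each Sham library, 5, 10 and 12 in injured VEGFR3fl/fl and 11, 5 and 22 in VEGFR3iLECko libraries, at least 9.45-fold higher in injured VEGFR3fl/fl. By mean CPM, Mybpc3 was over the filter level of 0.569 in VEGFR3iLECko libraries only (0.731, against 0.526 in injured VEGFR3fl/fl), so its call is a description. Among the binding proteins C, the slow form was lower and the fast form higher after injury, with the cardiac form at low counts. Lmod2 was not analysed here.

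Genes of the junction between nerve and muscle and of muscle regulation were also followed. Of 5 tested junction genes 3 fell and 0 rose by edgeR's quasi-likelihood test. Rapsn, which clusters acetylcholine receptors, went from 90.7 to 32.3 CPM, Lrp4, the agrin receptor, from 63.2 to 33.0 CPM and Musk, the kinase it activates, from 8.53 to 2.84 CPM. Of 8 tested myogenic regulators 2 fell and 3 rose. Over all genes 17.5% were called lower and 22.1% higher, so the counts of both short lists are a description. Myf6, also called MRF4, had 19, 28 and 25 counts in Sham and 0 in all 6 injured libraries, at least 22.9-fold lower in injured VEGFR3fl/fl. Pax3 fell from 21.4 to 2.01 CPM, and it is also known from pigment cells. Six4, Msc and Mef2b rose, by 1.38, 0.83 and 2.11 on the log2 scale, and Mef2a and Mef2d, at 104 to 129 CPM, did not pass. The rise of Mef2b rests on few reads, with 2 counts in each Sham library and 2, 14 and 10 in injured VEGFR3fl/fl libraries. Leaving out 1 library at a time gave 2 to 3 genes of this list higher. Myod1 and Pax7 were not analysed here, and Myog had at most 3 counts in any library. The eye muscle list of 5 genes, which shares Myh3 and Myh13 with the genes above, had 1 tested gene, Myh3, described above.

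Markers of other tissues were set beside these changes. The summed level of 18 smooth muscle genes was 9746 to 12156 CPM in Sham, 2119 to 3950 in injured VEGFR3fl/fl and 2938 to 4485 in VEGFR3iLECko libraries. Of these genes, all tested, 14 fell and 1, Ppp1r14a, rose in injured VEGFR3fl/fl, with Acta2 at a log2 fold change of -1.66 (SE 0.29) and Myh11 at -3.34 (SE 0.20). All 8 pigment genes fell as well, with a median of -2.35. The sums of smooth muscle, pigment and striated genes were thus lower in the same libraries, although more of the 21 tested striated genes rose than fell, and the part of each tissue's amount in the changes was not tested. In sum, the Sham libraries held 77.0, 45.3 and 9.63 CPM of corneal and surface epithelium genes and Mybpc1 at 40.9, 49.4 and 42.1 CPM. Of 6 tested surface epithelium genes 5 fell in injured VEGFR3fl/fl (Krt12, Krt5, Krt15, Krt13 and Krt4) and 5 in VEGFR3iLECko against Sham, with median log2 fold changes of -2.76 and -4.14. In injured VEGFR3fl/fl, 3 were called without Sham replicate 1 or 2 or without injured replicate 1 or 2, and 2 with a replicate block. Aldh3a1, the one that did not pass, reached 1921 counts in injured VEGFR3fl/fl replicate 1 against 33 and 178 in the other two. Of 4 tested lens genes 2 rose and 1 fell in injured VEGFR3fl/fl. Cryaa, a lens crystallin, had 1, 2 and 0 counts in Sham, 48, 607 and 541 in injured VEGFR3fl/fl and 274, 337 and 175 in VEGFR3iLECko libraries, so it was higher in all 6 injured libraries and was called in both comparisons with Sham. Crybb2 had 0 counts in each Sham library and 38, 318 and 0 in injured VEGFR3fl/fl, and Bfsp2, the most expressed lens gene, fell from 124 to 66.1 CPM. The part of surface epithelium and lens in the changes of the sarcomere and calcium genes was not tested. The 6 retina genes varied between 16.0 and 930 CPM in sum over the 9 libraries, and 0 of 6 passed in edgeR's quasi-likelihood test. Extraocular muscle, which lies outside the eye wall, is known for Myh13, which had 0 to 2 counts per library. Of the other genes of the eye muscle list, Myh3 rose as given above and Myh7b had 13, 8 and 7 counts in Sham, 5, 4 and 3 in injured VEGFR3fl/fl and 7, 3 and 2 in VEGFR3iLECko libraries, while Myh8 and Chrng were not analysed here. Ciliary body genes Cacna1e and Atp6v1c2 stayed at 1.44 to 3.64 CPM in sum in all libraries and did not pass.

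**Figure D4:**
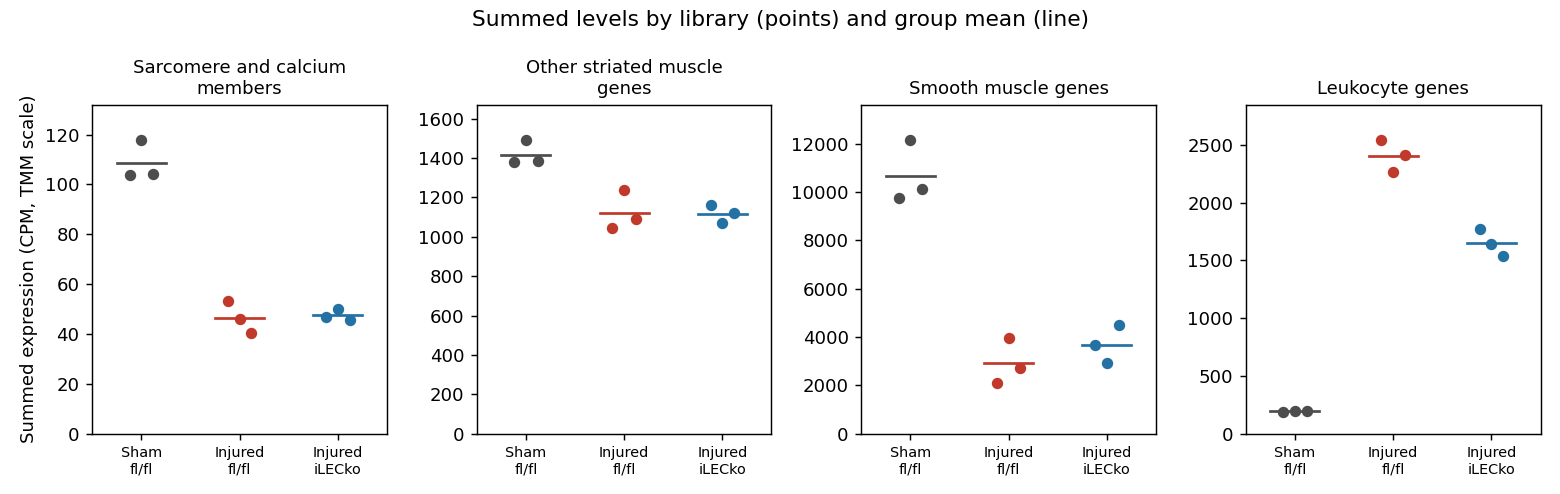
Summed expression (CPM, TMM scale) in each library (points) and group mean (line) for the 39 listed sarcomere and calcium genes, 49 other striated muscle genes, 18 smooth muscle genes and 8 leukocyte genes, each on its own axis from 0. The first 3 sums are lower in every injured library than in any Sham library, and the leukocyte sum is higher.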

How the data were processed

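RNA was made into libraries with the TruSeq mRNA kit, and the authors filtered 50-base single-end reads and aligned them with HISAT2 2.0.4 and Bowtie2 2.2.5 to mm10, per the labels and the submitters' processing notes. The authors deposited an estimated count (expected count) per gene without normalization. Between 9.83% and 10.3% of the values were not whole. The annotation, the counting program and the use of strand are not given in the sources used here.

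Groups came from titles, and the genotype tags of VEGFR3iLECko replicates 2 and 3, which name another VEGFR number, were not followed. Counts were rounded in R 4.3.3. filterByExpr of edgeR 4.0.16 kept 15010 of 18349 genes. TMM factors lay between 0.900 and 1.09. All 9 libraries were fitted with group as the only term, and p-values were adjusted by Benjamini-Hochberg over all genes tested. DESeq2 1.42.0 was an alternative. Other alternatives were the normalization, the filter, the libraries fitted, the fold threshold, a replicate block, a Y-linked covariate and leaving out each library. TPM used the longest GENCODE M21 transcript, found for 96.2% of genes. Intervals are exact binomial, cover counting error only, and floors are 3 counts over a group.

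The genes and lists were chosen with earlier results of these data known. All 41 genes are accounted for. Those with a mean of at least 5 CPM in a group, called in any comparison, or with the largest or smallest change of their role are given library by library. Genes outside the 41 are given only beside their list, mostly by the 2 highest means and by calls of 4 or fewer. Replicates of a group differed by a chi-square per degree of freedom of 5.13 to 76.2, so no library was counted as a copy of another. 2 genes of the lists of other muscle genes are not reported here. The fit was tested on simulated data. A table of the whole series with the same values and group averages was not used.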

Additional observations from a re-analysis of the deposited data

How the results depend on the processing

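Of the counts of called genes and their medians, those that moved are given here, and the causes were not tested unless stated. With a fit of the 6 libraries compared, which tested fewer of the 41 genes (18 and 17), 5 genes were called higher in injured VEGFR3fl/fl against Sham and 4 in VEGFR3iLECko against Sham, and without the filter on low counts, which tested 39, 9 genes were called lower in VEGFR3iLECko against Sham, with Myl1, Tnnc2, Atp2a1 and Trdn added. The filter of the smaller fit gave no value for Myh2 and Ryr1 against Sham, for Cacng1 in VEGFR3iLECko against Sham, and for Mybpc1 and Ckm between the injured groups. The median log2 fold change of injured VEGFR3fl/fl against Sham was 0.25 with library size only, where the median of all genes was -0.16, 0.34 in the fit of 6 libraries and 0.54 with a Y-linked covariate. That of VEGFR3iLECko against Sham was 0.051 with library size only, 0.054 in the fit of 6 libraries and 0.55 with the Y-linked covariate. Leaving out 1 library at a time gave medians of 0.36 to 0.64, -0.43 to -0.10 and 0.027 to 0.32 for injured VEGFR3fl/fl against Sham, VEGFR3iLECko against injured VEGFR3fl/fl and VEGFR3iLECko against Sham.

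Same-numbered replicates of different groups had deviations that correlated by -0.39 to 0.13, so samples share only a number, and a sample correlated best with its own number in another group in 6 of 18 cases. With a replicate block, the medians against Sham were 0.31 for injured VEGFR3fl/fl and 0.11 for VEGFR3iLECko, and Myh2 (2.54, adjusted p = 0.0723) and Actn2 (1.57, adjusted p = 0.0531) missed the threshold in injured VEGFR3fl/fl against Sham, as did Myh2 (3.00, adjusted p = 0.0507) in VEGFR3iLECko against Sham. Calls became 5 lower and 6 higher in both comparisons with Sham, and no other call of a gene given library by library changed under the block.

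The 5 falling genes, Myh3, Mybpc2, Tnni1 and Tnni2 kept their calls against Sham under all alternatives run. Myh2 and Actn2 were also lost with library size only (adjusted p = 0.0573 and 0.0570), and Actn2 in the fit of 6 libraries (adjusted p = 0.0616). Among values that passed no test, the sign turned for Tnnt1 in injured VEGFR3fl/fl against Sham with library size only (-0.045), and in VEGFR3iLECko against injured VEGFR3fl/fl for Tnnt3 with library size only (0.0017), the replicate block (0.044) and the Y-linked covariate (0.71), and with that covariate for Ttn (-0.033) and Ldb3 (0.20), and for Casq1 (-0.39) in VEGFR3iLECko against Sham. Leaving out 1 library gave ranges across 0 in injured VEGFR3fl/fl against Sham for Tnnt1 (-0.19 to 0.34) and Tnnt3 (-0.32 to 0.64), in VEGFR3iLECko against injured VEGFR3fl/fl for Myh2 (-0.94 to 1.21), Mybpc1 (-2.69 to 1.88), Tnnt3 (-0.39 to 0.57), Tnni1 (-0.55 to 0.045), Ttn (-0.13 to 0.23) and Ryr1 (-0.43 to 0.13), and in VEGFR3iLECko against Sham for Actn2 (-0.092 to 0.78) and Casq1 (-0.029 to 0.32). Genes near 0 counts, such as Mybpc1 and Ckm after injury, have folds set by counting depth.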
